A study of Homo sapiens with 6 samples.

Results

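Potassium channel subunit genes were followed in U87 cells with and without an shRNA against PRMT6. They were taken as the protein-coding genes whose symbol is KCN followed by letters and a number, and 95 of the 60612 genes in the deposited table met this rule. The rule itself uses gene names and no RNA level, although the family was picked with earlier results of these data known. Of the 95 genes, 26 had 0 counts in every library, 37 had some counts but fell under the filter on low counts, and 32 were tested.

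The U87 line was established from a human glioblastoma. RNA sequencing covered 3 libraries of control cells that received a scramble shRNA (NC) and in 3 libraries of cells that received an shRNA against PRMT6 (shPRMT6), an arginine methyltransferase of histones and other proteins. Both shRNAs were delivered by lentivirus, with polybrene as the labels say and, by the study's methods, with puromycin selection of stable cells. The labels do not name which of the study's PRMT6 shRNAs was sequenced, so all shPRMT6 libraries are treated here as replicates of 1 knockdown. The only comparison was shPRMT6 against NC, and it asks which channel genes had another RNA level when PRMT6 was suppressed.

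Potassium channels let potassium leave the cell, or enter it, along its electrochemical gradient, and so set the resting potential and end electrical signals. Pore-forming subunits assemble as tetramers (two-pore-domain subunits as dimers), and accessory subunits alter their opening, traffic or stability. In glioma cells the calcium-activated channels are the best known members, because potassium efflux through them accompanies the changes in cell volume that occur during migration.

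Counts summed to between 56388161 and 75887696 per library, and the TMM scaling factors of edgeR lay between 0.992 and 1.01. PRMT6 itself had 522, 606 and 449 counts in NC and 227, 282 and 355 in shPRMT6. All shPRMT6 libraries were below all NC libraries, at a log2 fold change of -0.87 (SE 0.187, adjusted p = 0.0225, edgeR quasi-likelihood F test, Benjamini-Hochberg adjusted over the 18106 genes tested). Without NC replicate 1, shPRMT6 replicate 1 or shPRMT6 replicate 2 the adjusted p of PRMT6 rose above 0.05, while its log2 fold change stayed negative in each of the 6 such fits, at -0.73 or below. The 10 markers of mesenchymal glial cells were all detected and summed to between 16870 and 18380 CPM (counts of a gene relative to library size) in the 6 libraries. The astrocyte markers summed to at most 42.7 CPM, with 3 of 6, AQP4 among them, at 0 counts everywhere. Most of that sum came from SLC1A3 (18.5 to 41.5 CPM), while GFAP had at most 0.886 CPM.

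Of the 32 channel genes tested, 3 fell and 3 rose past an adjusted p of 0.05 (edgeR quasi-likelihood F test). Among all genes tested 9.06% fell and 9.51% rose, together 18.6%, so that the 6 calls of 32 channel genes are the share found among genes at large. KCNN3, KCNAB2 and KCNMB4 fell, and KCNQ3, KCNMA1 and KCNS3 rose. The median log2 fold change of the 32 genes was 0.16, against -0.01 over all genes tested. The sign of that median was not stable, since it ran from -0.12 to 0.27 over the alternative settings. Some of these settings tested another set of channel genes. In 5 of the 32 genes every shPRMT6 library was below every NC library and in 11 every one was above, while over all genes tested this was so in 19.9% and 20.3%. The 11 include KCNJ3, which entered the test only through its shPRMT6 libraries. In bulk RNA, fewer cells that carry a transcript and less of the transcript per cell cannot be told apart.

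**Figure D1:**
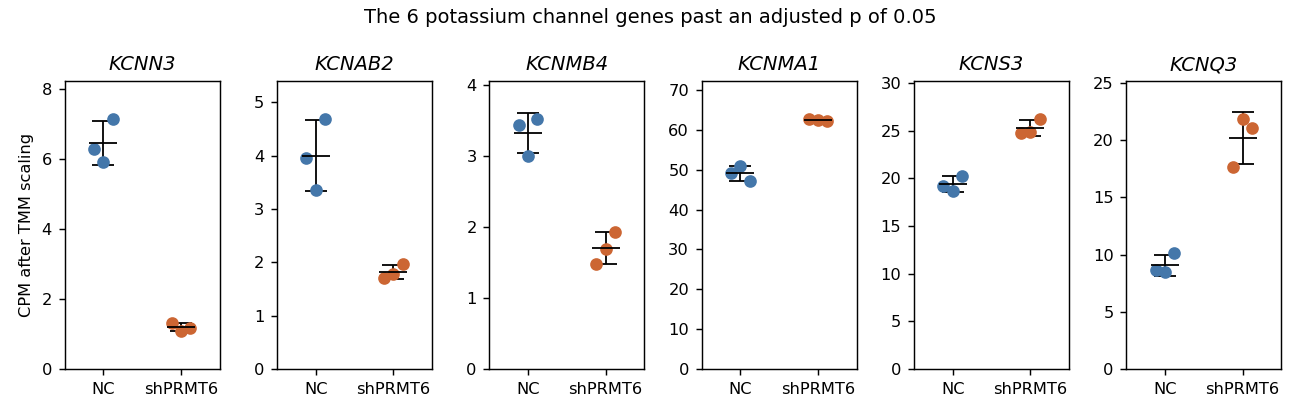
TMM-scaled CPM (counts relative to library size, y axis from 0) of the 6 channel genes past an adjusted p of 0.05, 1 panel per gene. Points are libraries (3 NC in blue, 3 shPRMT6 in orange) and bars are the mean and SD. In each panel the 3 shPRMT6 points lie all below (KCNN3, KCNAB2, KCNMB4) or all above (KCNMA1, KCNS3, KCNQ3) the 3 NC points.

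KCNN3 encodes SK3, a small-conductance channel that opens when calcium binds the calmodulin attached to it. Its raw counts were 352, 450 and 447 in NC and 83, 67 and 80 in shPRMT6. The lowest NC library held several times the highest shPRMT6 library. KCNN3 RNA fell from a mean of 6.46 ± 0.637 CPM to one of 1.19 ± 0.108 CPM (SD, n = 3 in each), that is to 18.4% of the NC mean. This was a log2 fold change of -2.44 (SE 0.163, adjusted p = 0.000581, edgeR quasi-likelihood F test, Benjamini-Hochberg adjusted). It was the largest change among the 6 channel genes past the threshold, and it passed under each of the 18 alternatives tried, with an adjusted p of at most 0.0152. The study itself listed KCNN3 among the genes that fell most in these libraries, so this call is not independent evidence. None of the 75-base stretches in the transcripts of KCNN3 is shared with another gene.

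KCNN3 lies on the minus strand of chromosome 1 of GRCh38, from 154697455 to 154870280. The promoter window that RefSeq gives for it (250 bases before to 50 after the start of the gene, GRCh38.p14, chr1:154870232-154870531, minus strand) is shown because KCNN3 had the largest fall among the channel genes past the threshold. That of KCNMA1 (chr10:77637759-77638058, minus strand), the most abundant of the 3 genes that rose by count, is shown beside it. Capitals mark the GC box, GGGCGG read on either strand, to which factors of the Sp family are known to bind.
KCNN3: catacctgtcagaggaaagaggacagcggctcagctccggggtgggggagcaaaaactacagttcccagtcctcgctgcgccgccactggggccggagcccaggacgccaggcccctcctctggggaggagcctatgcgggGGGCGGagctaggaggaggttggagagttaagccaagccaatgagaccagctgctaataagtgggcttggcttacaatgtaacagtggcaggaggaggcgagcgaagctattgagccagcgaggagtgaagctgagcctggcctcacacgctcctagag
KCNMA1: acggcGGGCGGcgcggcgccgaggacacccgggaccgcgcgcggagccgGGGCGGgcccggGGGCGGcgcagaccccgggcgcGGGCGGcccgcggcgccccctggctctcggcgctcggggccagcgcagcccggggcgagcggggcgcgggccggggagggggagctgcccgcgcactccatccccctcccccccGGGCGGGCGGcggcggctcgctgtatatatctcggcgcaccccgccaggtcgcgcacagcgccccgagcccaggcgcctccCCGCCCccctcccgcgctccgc
The KCNN3 window held 13 CpG dinucleotides and 1 GC box, and the KCNMA1 window held 54 CpG dinucleotides and 7 GC boxes, some of them overlapping. Promoter windows were found for 71 of the 95 channel genes, and 43 of these (60.6%) held the motif. Over all 35116 windows of the table the share was 45.0%. Among the channel genes tested 19 of 25 windows (76.0%) held it, beside 67.6% of the 11796 windows of all genes tested. Among the channel genes not tested it was 24 of 46 (52.2%). The window of KCNAB2, which fell, held 31 CpG dinucleotides and no GC box, and that of KCNS3, which rose, held 19 and 1. The presence of the motif did not separate the genes that fell from those that rose in these 4 windows, and no binding was measured here.

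A second set of sequences bears on the knockdown tool. The antisense strand of an shRNA can also pair, through its bases 2 to 8 (the seed), with the 3′ UTR of other transcripts. The longest annotated 3′ UTR of KCNN3 has 10521 bases, and it holds the site of shPRMT6 #2 at 2 places, which are shown for the same reason. Capitals mark the seed in the first line and the bases that pair with it in the others (GRCh38, minus strand, chr1:154707017-154707023 and chr1:154699741-154699747).
shPRMT6 #2 antisense: aAGATGCTcagaatgccggtg
KCNN3 site 1: taaaaataacAGCATCTgcagagtttt
KCNN3 site 2: tgaggaactcAGCATCTcaccagtaag
KCNN3 also held 1 site of shPRMT6 #3 and none of shPRMT6 #1. Over the 3′ UTRs of all annotated transcripts of a gene, the site of #2 was present in 2 of the 3 channel genes that fell (KCNN3 and KCNMB4), in 1 of the 3 that rose (KCNQ3), and in 6 of the 26 others. Among all genes tested, only those with an annotated 3′ UTR of at least 50 bases could be scanned. The site of #2 was present in 26.9% of the 1471 of these that fell, 16.2% of the 1553 that rose and 20.1% of the 10235 others. The site of #1 was present in 16.4%, 19.8% and 18.5% of these groups, and that of #3 in 23.0%, 26.7% and 26.4%, so these shares ran the other way. None of these shares was adjusted for 3′ UTR length or number of transcripts, and a 3′ UTR as long as that of KCNN3 has more places for any site. Since the labels do not say which shRNA was sequenced, the part of this pairing in the fall of KCNN3 was not tested.

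No other member of the KCNN family passed the test. KCNN4 encodes KCa3.1, the intermediate-conductance calcium-activated channel, which is known in glioblastoma for its part in migration. KCNN4 had 3602, 5117 and 4646 counts in NC and 6142, 4768 and 5534 in shPRMT6. After scaling its shPRMT6 values lay all above the NC values, but the log2 fold change of 0.31 (SE 0.103) did not pass (adjusted p = 0.0862, edgeR quasi-likelihood F test, Benjamini-Hochberg adjusted), while DESeq2 gave an adjusted p of 0.0118. KCNN2, which encodes SK2, had 21, 29 and 28 counts in NC and 39, 23 and 76 in shPRMT6, and the groups overlapped (log2 fold change 0.81, SE 0.467, adjusted p = 0.287 from the same test). KCNN1, which encodes SK1, fell under the filter, with 15, 6 and 13 counts in NC and 1, 6 and 4 in shPRMT6.

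Within a library, the count ratio of 2 genes does not depend on the scaling factor. KCNN3 had 9.77, 8.79 and 9.62 counts per 100 counts of KCNN4 in NC and 1.35, 1.41 and 1.45 in shPRMT6. The mean ratio was 9.40 ± 0.527 in NC and 1.40 ± 0.0473 in shPRMT6 (SD, n = 3), and the groups did not overlap (exact two-sided permutation test, p = 0.1, the smallest p that 3 against 3 allow). This pair and the next ratio were chosen after the values had been seen. After scaling, KCNN3 lay all below and KCNN4 all above NC in shPRMT6. The ratio therefore could not overlap and its p was fixed, so it adds no evidence to the values of the single genes.

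KCNMA1 encodes the pore of the BK channel, the large-conductance channel opened by voltage and calcium together, which glioma cells are known to express strongly. Its counts were 2746, 3873 and 2953 in NC and 4003, 3849 and 4224 in shPRMT6. The raw counts of NC replicate 2 exceeded those of shPRMT6 replicate 2, and after scaling for depth the groups did not overlap. KCNMA1 rose from 49.1 ± 1.81 CPM to 62.6 ± 0.260 CPM (SD, n = 3), a log2 fold change of 0.35 (SE 0.0612, adjusted p = 0.0111, edgeR quasi-likelihood F test, Benjamini-Hochberg adjusted). The call was lost without shPRMT6 replicate 1, without shPRMT6 replicate 2 and in all 3 limma fits on FPKM. Of its 75-base stretches 0.466% are shared with other genes, among them its antisense gene.

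KCNMB4 encodes β4, an accessory subunit of the BK channel best known from neurons. It lies on chromosome 12 from 70366276 to 70434292. It had 192, 228 and 220 counts in NC and 94, 104 and 131 in shPRMT6, with every shPRMT6 library below every NC library. KCNMB4 fell from 3.32 ± 0.281 to 1.70 ± 0.229 CPM (SD, n = 3), a log2 fold change of -0.96 (SE 0.183, adjusted p = 0.0150, edgeR quasi-likelihood F test, Benjamini-Hochberg adjusted). The call was lost without NC replicate 3, shPRMT6 replicate 1 or shPRMT6 replicate 2.

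The pore subunit of BK thus rose while its β4 subunit fell. KCNMB4 had 6.99, 5.89 and 7.45 counts per 100 counts of KCNMA1 in NC and 2.35, 2.70 and 3.10 in shPRMT6. The mean ratio was 6.78 ± 0.804 in NC and 2.72 ± 0.377 in shPRMT6 (SD, n = 3), again without overlap and with p = 0.1, the smallest possible, in the exact two-sided permutation test. That outcome was fixed too, since after scaling KCNMA1 lay all above and KCNMB4 all below NC in shPRMT6. Of the other β subunits, KCNMB1 had 0 counts in every library and KCNMB2 had 4 counts in 1 library. KCNMB3 had 27, 52 and 39 counts in NC and 57, 115 and 59 in shPRMT6 (log2 fold change 1.01, adjusted p = 0.126 from edgeR's quasi-likelihood F test), and 48.3% of its 75-base stretches are shared with other genes, PIK3CA on the opposite strand among them, so its counts are uncertain.

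**Figure D2:**
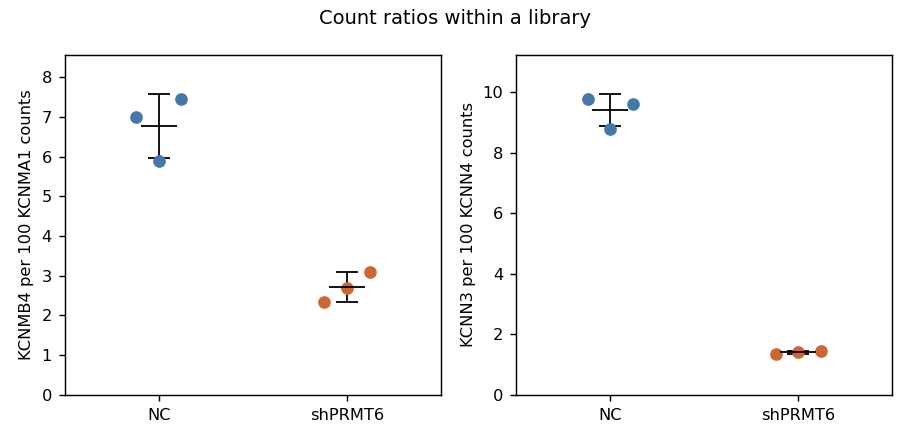
Counts of KCNMB4 per 100 counts of KCNMA1 (left) and of KCNN3 per 100 counts of KCNN4 (right) in each library, with axes from 0. Points are libraries and bars are mean and SD of 3. Both ratios were lower in every shPRMT6 library, with means of 6.78 against 2.72 and of 9.40 against 1.40. Both separations follow from the scaled values of the single genes.

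KCNQ3 encodes Kv7.3, a voltage-gated pore subunit that contributes to the slow M-current, for instance together with KCNQ5. KCNQ3, on chromosome 8, had 482, 643 and 632 counts in NC and 1124, 1347 and 1430 in shPRMT6. The lowest shPRMT6 library was well above the highest NC library. KCNQ3 rose from 9.07 ± 0.920 to 20.2 ± 2.25 CPM (SD, n = 3), to 2.23 times the NC level (log2 fold change 1.16, SE 0.128, adjusted p = 0.00245, edgeR quasi-likelihood F test, Benjamini-Hochberg adjusted). It passed under every one of the 18 alternatives, with an adjusted p of at most 0.0207.

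Its partner KCNQ5 did not pass the test. KCNQ5 had 267, 333 and 226 counts in NC and 293, 228 and 164 in shPRMT6, with overlapping groups (log2 fold change -0.25, SE 0.259, adjusted p = 0.558, edgeR quasi-likelihood F test, Benjamini-Hochberg adjusted). KCNQ1, a subunit known from heart and epithelia, had at most 31 counts in a library.

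KCNS3 encodes Kv9.3, an electrically silent subunit that forms no channel alone and changes the properties of other voltage-gated pores when it joins them. Its counts were 1076, 1417 and 1267 in NC and 1577, 1529 and 1781 in shPRMT6. KCNS3 rose from 19.4 ± 0.841 to 25.3 ± 0.859 CPM (SD, n = 3), without overlap (log2 fold change 0.38, SE 0.0810, adjusted p = 0.0213, edgeR quasi-likelihood F test, Benjamini-Hochberg adjusted). The call was lost in 4 of the 6 fits that left out a library, namely without NC replicate 1 and without each of the shPRMT6 libraries.

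KCNG1, another electrically silent subunit, had 1625, 1504 and 1699 counts in NC and 1285, 1374 and 1366 in shPRMT6. Its scaled values overlapped between the groups (log2 fold change -0.28, SE 0.154, adjusted p = 0.265), and it passed only without NC replicate 2 (adjusted p = 0.0331, both from edgeR quasi-likelihood F test, Benjamini-Hochberg adjusted). KCNS1 had between 225 and 333 counts in NC and between 146 and 266 in shPRMT6, and although its scaled values did not overlap it did not pass (adjusted p = 0.222, same test).

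KCNAB2 encodes Kvβ2, a cytoplasmic accessory subunit of KCNA channels with an aldo-keto reductase fold. It lies on chromosome 1 from 5991466 to 6101193, on the plus strand. KCNAB2 had 221, 255 and 293 counts in NC and 109, 110 and 133 in shPRMT6, again without overlap. It fell to 1.82 ± 0.129 CPM (SD, n = 3), which is 45.5% of the NC mean (log2 fold change -1.13, SE 0.187, adjusted p = 0.00910, edgeR quasi-likelihood F test, Benjamini-Hochberg adjusted). The fall passed under all 18 alternatives, with an adjusted p of at most 0.0469. Its exons overlap those of NPHP4 on the opposite strand over 111 bases, and 0.373% of its 75-base stretches are shared.

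The KCNA pores to which Kvβ2 binds had few counts. KCNA3 and KCNA5 had none in any library, KCNA1, KCNA2, KCNA4, KCNA6 and KCNA10 fell under the filter, and KCNA7 had at most 19 counts in a library. The sister gene KCNAB1 had 126, 139 and 179 counts in NC and 158, 210 and 272 in shPRMT6 (log2 fold change 0.51, SE 0.258, adjusted p = 0.222, edgeR quasi-likelihood F test, Benjamini-Hochberg adjusted). KCNAB3 had 52, 78 and 38 counts in NC and 8, 39 and 22 in shPRMT6 (log2 fold change -1.24, SE 0.587, adjusted p = 0.198 from the same test), and for both the groups overlapped.

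**Figure D3:**
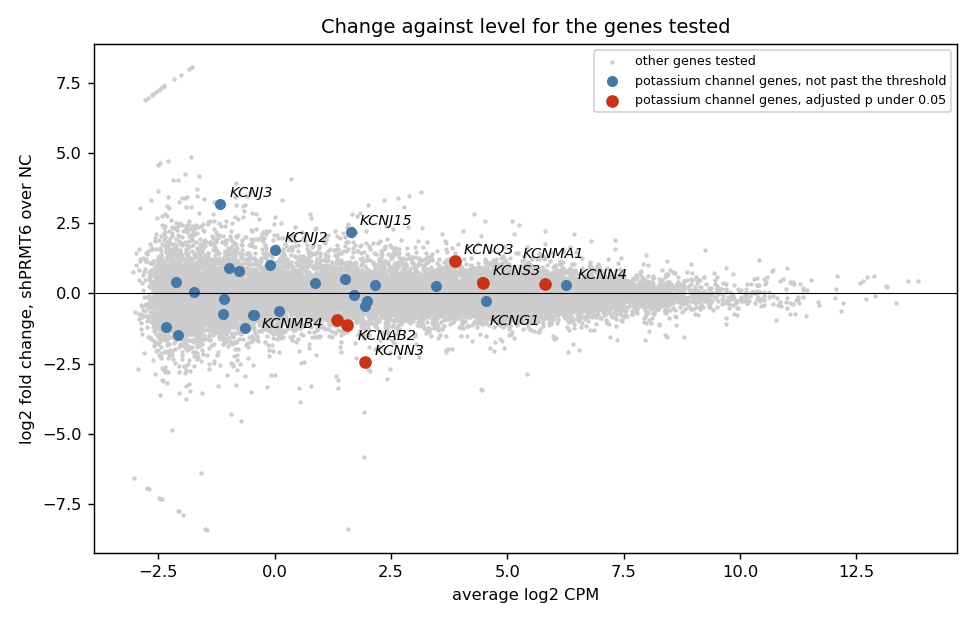
Fitted log2 fold change (shPRMT6 over NC, y axis) against average log2 CPM (x axis) of all 18106 genes tested in grey, the 26 channel genes not past the threshold in blue and the 6 past it in red. KCNN3 is the lowest of the 32 channel genes tested at -2.44, and KCNJ3, KCNJ15 and KCNJ2, higher on the axis than KCNQ3 at 1.16, did not pass.

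The inward rectifiers, which pass potassium more readily into the cell than out of it, gave no call. Of 16 KCNJ genes 5 were tested. In 3 of them (KCNJ2, KCNJ15 and KCNJ3) the shPRMT6 values lay all above the NC values, beside 20.3% of all genes tested. KCNJ3 is counted among these 3 although the filter itself favoured a higher shPRMT6 level for it, as given next. KCNJ3, which encodes the G protein-gated subunit GIRK1, had 0, 8 and 8 counts in NC and 68, 30 and 46 in shPRMT6. It reached the filter's cutoff in 3 shPRMT6 libraries and in 0 NC libraries, so it was tested only through the group where it is high, and its fitted fold over counts this low is not given. It did not pass (adjusted p = 0.0506 in edgeR's quasi-likelihood F test, and between 6.44e-05 and 0.160 over the alternatives). KCNJ5, which encodes GIRK4, the usual partner of GIRK1 in the atrium of the heart, fell under the filter with 0 counts in all 3 NC libraries and 8, 8 and 19 in shPRMT6. The other partners KCNJ6 and KCNJ9 had 6 counts in 1 library and none. GIRK1 and GIRK4 were paired here after their values had been seen.

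KCNJ2, which encodes Kir2.1, the classical inward rectifier that holds the resting potential, had 15, 63 and 23 counts in NC and 64, 86 and 133 in shPRMT6. After scaling every shPRMT6 library was above every NC library, but the log2 fold change of 1.56 (SE 0.493) did not pass (adjusted p = 0.0750, edgeR quasi-likelihood F test, Benjamini-Hochberg adjusted). KCNJ15, which encodes Kir4.2, had 71, 55 and 82 counts in NC and 712, 93 and 162 in shPRMT6. Most of its difference came from shPRMT6 replicate 1, and the log2 fold change was 2.19 with that library and 0.83 without it (adjusted p = 0.102 with it). KCNJ8, which encodes Kir6.1, the pore of a channel closed by ATP, had 81, 100 and 63 counts in NC and 48, 66 and 42 in shPRMT6, with overlap (log2 fold change -0.62, adjusted p = 0.207 from the same test). Its sulfonylurea receptor ABCC9 had 43.5 ± 5.14 CPM in NC and 45.2 ± 2.48 CPM in shPRMT6 (SD, n = 3).

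Among voltage-gated pores other than KCNQ3, KCNC4 and KCND1 had the highest counts and neither passed. KCNC4, a fast Kv3 channel, had 948, 1563 and 1191 counts in NC and 1747, 1561 and 1491 in shPRMT6 (log2 fold change 0.40, SE 0.120, adjusted p = 0.0639, edgeR quasi-likelihood F test, Benjamini-Hochberg adjusted). KCND1, a rapidly inactivating Kv4 channel, had 534, 790 and 635 counts in NC and 703, 747 and 852 in shPRMT6 (log2 fold change 0.25, SE 0.102, adjusted p = 0.150 from the same test). For both genes the scaled values did not overlap between groups. KCNIP2, an accessory subunit of Kv4 channels, had 65, 22 and 77 counts in NC and 41, 27 and 34 in shPRMT6, and these overlapped. KCNH2, the hERG channel, did not pass either (log2 fold change 0.36, adjusted p = 0.482).

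The two-pore-domain channels, which carry background potassium current, were scarce. Of 15 KCNK genes 8 had 0 counts in every library and 4 were tested, with no call. KCNK13 had 11, 31 and 24 counts in NC and 52, 34 and 34 in shPRMT6, and KCNK3 (TASK-1) had 29, 31 and 43 against 16, 24 and 23. Their adjusted p in edgeR's quasi-likelihood F test was 0.201 and 0.268, although neither gene's scaled values overlapped between the groups. KCNK2 (TREK-1) had between 4 and 27 counts in any library.

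By level per length, 1 gene dominated the family. KCNN4 stood at 16.98 ± 1.44 FPKM in NC and 21.2 ± 2.47 in shPRMT6 (SD, n = 3). FPKM, as deposited, corrects the fragment number of a gene for its length and for library size. Summed over all channel genes, FPKM was 35.3, 34.4 and 38.2 in NC and 45.0, 40.3 and 41.9 in shPRMT6, and KCNN4 alone supplied 44.6% to 48.6% of it in NC and 47.7% to 53.3% in shPRMT6. KCNS3 at 5.22 ± 0.266 FPKM, KCNG1 at 3.93 ± 0.756, KCND1 at 1.39 ± 0.0704 and KCNMA1 at 1.05 ± 0.0345 followed in NC. Each of these 5 lay above the next in every NC library.

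Below KCNMA1 neighbours in the order overlapped, except that KCNMB4 on rank 10 lay above KCNQ5 on rank 11 in every NC library. The genes on ranks 6 to 10, KCNE4, KCNS1, KCNC4, KCNQ3 and KCNMB4, had NC means between 0.573 and 0.806 FPKM, and each overlapped with the next among them. KCNN3 stood on rank 13 in NC with 0.399 ± 0.0426 FPKM, and its level in shPRMT6 was 0.0732 ± 0.00604 FPKM. KCNQ3 went from 0.599 ± 0.0664 to 1.34 ± 0.150 FPKM, a level like that of KCNMA1 in shPRMT6 (1.34 ± 0.00576). The length behind an FPKM value is 1 per gene. From the counts of NC replicate 2 and their total it came to 47090 bases for KCNMA1 and 4057 for KCNN4. The exon bases pooled over annotated transcripts were fewer, 35644 and 3408. Over the channel genes tested the ratio of the 2 lengths ran from 1.11 to 2.21, so the values from FPKM are not true gene lengths. A large length places genes with many long alternative exons, such as KCNMA1, low in this order.

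**Figure D4:**
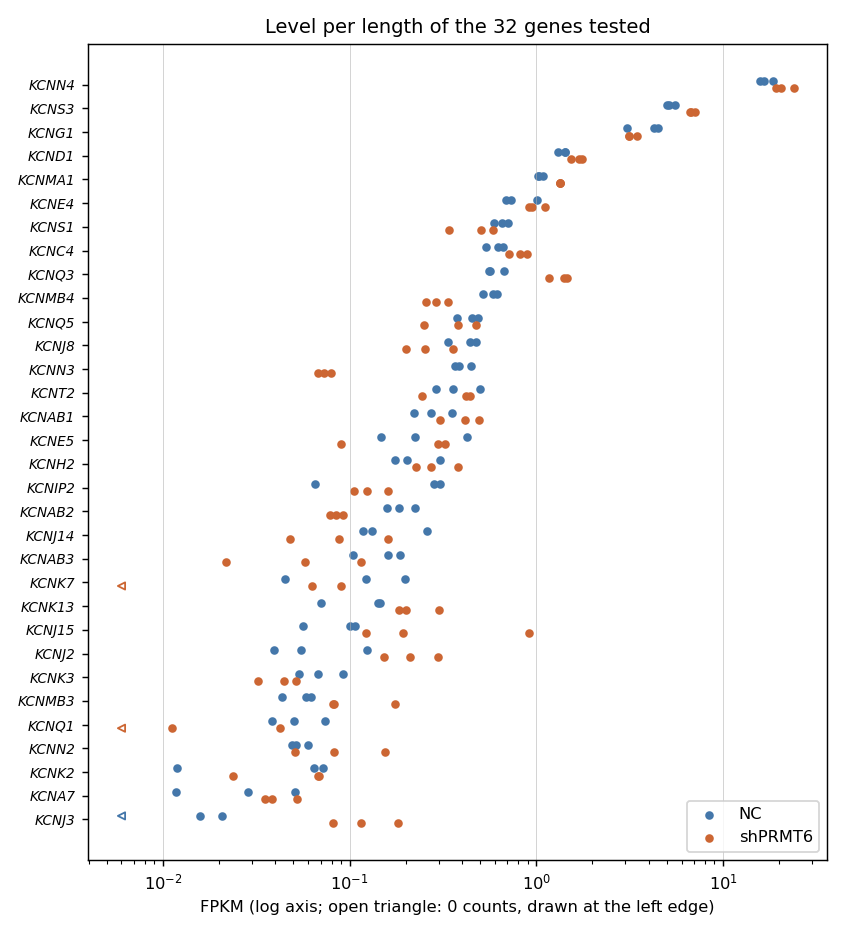
FPKM (x axis, log scale) of the 32 channel genes tested, in the order of their NC mean. Each point is a library, with NC in blue and shPRMT6 in orange, and an open triangle at the left edge stands for a library with 0 counts. KCNN4 at the top stands apart, with 16.98 FPKM in NC, while KCNN3 moves left and KCNQ3 moves right in shPRMT6.

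Of the 37 genes under the filter, which had at most 50 counts over the 6 libraries together, 3 did not overlap between the groups. They were KCNJ5, already given, KCNH5 with 0 counts in NC and 4, 4 and 4 in shPRMT6, and KCNV2 with 6, 12 and 10 counts in NC and 0 in each shPRMT6 library. The share without overlap among all genes under the filter was not computed, so nothing is concluded from these 3. KCNF1 had 42 counts in shPRMT6 replicate 3 and 0 in the other 5 libraries. Low counts in the table fall in steps, which limits how such values can be read. Among all genes, 1240 to 1399 per library had exactly 4 counts, while 398 to 421 had 3 and 223 to 269 had 5. Of the 81 values between 1 and 12 in the channel genes under the filter, 62 were 4, 8 or 12. A value of 4 may therefore stand for fewer than 4 independent reads. With counts divided by 4 and rounded, an alternative chosen with the data in view, the same 6 genes were called.

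The genes that work with these channels were described from other lists. Among the channel partners with other names, 10 were tested and 1 rose, CSNK2A2, a catalytic subunit of the kinase CK2 that associates with SK channels (5428, 6727 and 6008 counts in NC and 7122, 7034 and 7277 in shPRMT6, log2 fold change 0.24, adjusted p = 0.0422, edgeR quasi-likelihood F test, Benjamini-Hochberg adjusted). That call held in 7 of 18 alternatives and in none of the 6 fits that left out a library. The median log2 fold change of the partner genes tested was 0.04, and among all genes tested 9.51% rose and 9.06% fell. CALM3, a gene of calmodulin, the calcium sensor of SK channels, did not pass and had a low value in 1 library of each group (10442 counts in NC replicate 1 and 11989 in shPRMT6 replicate 3).

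Of the 23 genes of calcium entry and store release that were tested, 1 rose and 1 fell, beside 9.51% and 9.06% of all genes tested. Their median was -0.04. ITPR1, a calcium release channel of the endoplasmic reticulum, rose from 265 to 372 CPM (13035, 22615 and 16494 counts in NC and 22577, 22771 and 26506 in shPRMT6, log2 fold change 0.49, adjusted p = 0.0168, edgeR's quasi-likelihood F test). Its call was lost in 5 of 18 alternatives, among them the fits without NC replicate 3, shPRMT6 replicate 2 or shPRMT6 replicate 3.

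Of 13 potassium pump and cotransporter genes tested 2 fell and none rose, beside 9.06% and 9.51% of all genes tested, with a median of -0.27. FXYD5, a regulator of the sodium-potassium pump, had 29146, 32281 and 35957 counts in NC and 17187, 19321 and 17795 in shPRMT6 (log2 fold change -0.85, SE 0.127, adjusted p = 0.00658, edgeR quasi-likelihood F test, Benjamini-Hochberg adjusted).

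Of 29 sodium, HCN and chloride channel genes tested 6 rose and 1 fell, beside 9.51% and 9.06% of all genes tested, with a median of 0.05. SCN9A, which encodes the sodium channel Nav1.7, had 101, 151 and 122 counts in NC and 386, 367 and 448 in shPRMT6 (log2 fold change 1.70, SE 0.138, adjusted p = 0.00112). SCN2A, which encodes Nav1.2, rose as well (log2 fold change 0.85, adjusted p = 0.00649), as did HCN2, a cation channel opened by hyperpolarization (0.63, adjusted p = 0.00499), and CLIC2 (2.09, adjusted p = 0.00913). CLCN2, a chloride channel, had 969, 1205 and 1129 counts in NC and 439, 493 and 546 in shPRMT6 (log2 fold change -1.16, SE 0.112, adjusted p = 0.00170). All adjusted p are from edgeR quasi-likelihood F test, Benjamini-Hochberg adjusted.

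Markers of other cell types were measured because KCNN3 and KCNN4 are also known from endothelium and KCNMB4 from neurons. The endothelial markers summed to between 9.48 and 12.6 CPM in NC and between 16.95 and 17.91 CPM in shPRMT6. They did not overlap, and TEK was the 1 of 3 tested that passed (log2 fold change 0.60, adjusted p = 0.0288, edgeR's quasi-likelihood F test). Among all genes tested 9.51% rose. CDH5, a defining endothelial marker, had 4 counts in 1 NC library and 0 in the other 5. The neuronal markers summed to between 118 and 223 CPM in NC and between 131 and 247 in shPRMT6, with overlap, and none of the 6 passed. Most of this sum came from TUBB3 (87.5 to 195 CPM in NC and 102 to 223 in shPRMT6). Only SYP, with 71, 109 and 107 counts in NC and 8, 50 and 65 in shPRMT6, did not overlap between the groups. It was lower in shPRMT6 (log2 fold change -1.22, adjusted p = 0.244, edgeR's quasi-likelihood F test), as were 19.9% of all genes tested without overlap. The part of these genes in the results for KCNN3, KCNN4 and KCNMB4 was not tested.

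**Figure D5:**
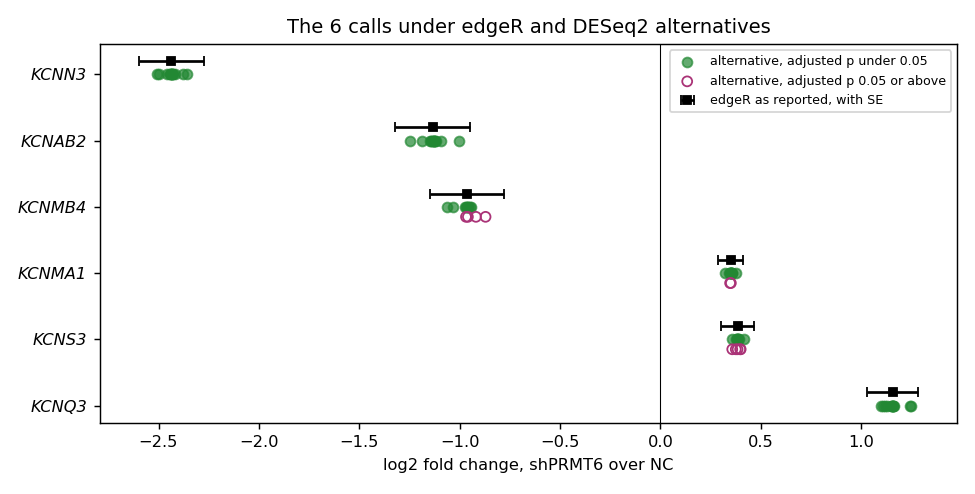
Log2 fold change (x axis) of the 6 called channel genes as reported (black square with SE) and under the edgeR and DESeq2 alternatives, filled where the adjusted p was under 0.05 and open where it was not. KCNN3, KCNAB2 and KCNQ3 have filled points only, while KCNMB4, KCNMA1 and KCNS3 have open points at values close to the filled ones.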

How the data were processed

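RNA was measured in 3 NC and 3 shPRMT6 libraries of U87 cells, grouped by their labels. The methods call them independent replicates. The authors deposited raw counts per gene, not normalized, and FPKM values (scaled to gene length and mapped fragments), in which a gene with 0 counts is listed at 0.0001. The submitters' processing notes name GRCh38, HISAT2 and HTSeq 0.13.5, with no statement on strand. No per-sample column was left unused. The table's 60612 gene IDs were given symbols from reference tables (60401 matched), and 58394 matched GENCODE 29.

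The counts were tested with edgeR 4.0.16 in R 4.3.3 (filterByExpr, TMM, trended dispersion, quasi-likelihood test of group with no block, Benjamini-Hochberg adjustment over 18106 genes, call at an adjusted p of 0.05). The filter's cutoff was 0.159 CPM. Of the 32 channel genes tested, 26 reached it in all 6 libraries, 2 (KCNJ3 and KCNA7) in all shPRMT6 but not all NC libraries, and 2 (KCNQ1 and KCNAB3) the reverse. CPM values include the TMM factors. Errors are SD over 3 libraries. Totals per library were 56388161, 75887696 and 61862219 in NC and 63862129, 61805330 and 67630740 in shPRMT6. Every pair of replicates within a group differed beyond sampling noise (chi-square over its degrees of freedom, 48.2 to 78.4), so none was a duplicate.

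The genes named are PRMT6, every channel gene past the threshold, KCNN1 to KCNN4, the 5 channel genes of highest mean FPKM and, of each other list, at most 5 genes past the threshold. Other channel genes are named as partners of these or were picked after their values were seen. Single values of some genes under this rule are not reported here. The members and all lists were chosen with earlier results of these data known. Alternatives were DESeq2 1.42.0, upper quartile factors, no scaling factors, filters of at least 10 counts in every library or at least 1 in any, a replicate block, limma 3.58.1 on log2(FPKM + 1) and log2(FPKM + 0.1), with and without the filter, an adjusted p under 0.01, the study's threshold (absolute log2 fold change above 1 with an unadjusted p under 0.05), each library left out, and counts divided by 4. Promoter windows are from RefSeq and 3′ UTRs (at least 50 bases, any annotated transcript) from GENCODE 29, scanned with Python 3.11.15. Permutation tests used SciPy 1.17.1. On simulated counts for 17532 genes with 200 drawn to change, edgeR recovered 41.7% of those changed by 1 on the log2 scale and 75.7% of those changed by 2, with 7.38% false among its calls, DESeq2 recovered 41.7% and 78.6% with 20.0% false, and limma recovered 28.6% and 71.8% with 3.92% false. The simulation used the dispersion trend alone, had no steps among low counts and changed far fewer genes than were called in the data. Its rates therefore do not carry over to these libraries.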

Additional observations from a re-analysis of the deposited data

How the results depend on the processing

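KCNN3, KCNQ3 and KCNAB2 kept their direction and passed under all 18 alternatives, and no log2 fold change of a named gene reversed. The median over the channel genes tested changed sign, from 0.16 to between -0.12 and -0.01, without NC replicate 2 or 3 or shPRMT6 replicate 2 or 3. The KCNN3 log2 fold change lay between -2.51 and -2.36 when a library was left out. The number of channel genes that fell ran from 2 to 4 over all alternatives. The number that rose was 9 with DESeq2 (KCNC4, KCNJ2, KCNJ3, KCNJ15, KCNMB3 and KCNN4 were added), 1 at an adjusted p under 0.01, 5 under the study's threshold, and 1 to 4 when a library was left out, with 1 (KCNQ3) without shPRMT6 replicate 1 or shPRMT6 replicate 2. The numbers with DESeq2, under the study's threshold and without NC replicate 1 include KCNJ3. That gene entered the main test only through its shPRMT6 libraries, where it is high. Over all genes, 3362 were called, against 5782 with DESeq2, 1320 at an adjusted p under 0.01, 1072 under the study's threshold and 1755 to 3183 when a library was left out. The PRMT6 log2 fold change of -0.87 did not pass the adjusted p of 0.01 or the study's size limit, it was -0.47 and did not pass in the unfiltered limma fit on log2(FPKM + 1) (adjusted p = 0.0578), and it ran from -1.0004 to -0.73 when a library was left out. KCNMA1 passed in 11 of 18 alternatives, KCNMB4 in 12 and KCNS3 in 11. The cause of these differences was not tested. At this depth 37 channel genes with counts stayed under the filter and were not tested.

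The replicate numbers of NC and shPRMT6 were not read as pairs, since deviations of same-numbered libraries from their group means correlated between -0.0301 and -0.0171 over genes. With the replicate block 1858 genes were called, 2 channel genes fell (KCNN3, KCNAB2) and 2 rose (KCNQ3, KCNMA1), and the PRMT6 log2 fold change was -0.88 (adjusted p = 0.0803, edgeR's quasi-likelihood F test).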

Other observations

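Of the markers of mesenchymal glial cells, which were used only to check the cell line, 4 of 10 rose and 2 fell past an adjusted p of 0.05, against 9.51% and 9.06% of all genes tested. SPARC, a matrix-associated glycoprotein, rose by a log2 fold change of 0.76 (adjusted p = 0.000880), CHI3L1 by 1.62 (adjusted p = 0.00294), ANXA1 by 0.56 and ANXA2 by 0.52, while FN1, fibronectin, had a log2 fold change of -0.72 (adjusted p = 0.00246) and TNC, tenascin C, one of -0.35 (adjusted p = 0.00585), all from edgeR quasi-likelihood F test, Benjamini-Hochberg adjusted. The epithelial marker CDH1 had 31, 58 and 38 counts in NC and 16, 4 and 7 in shPRMT6 (log2 fold change -2.18, adjusted p = 0.0428 from the same test).

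Some partner genes of high count had 1 library far from the rest of its group. CSNK2B had 3036, 9389 and 4059 counts in NC and 4228, 9115 and 9610 in shPRMT6, and VAPB had 8295, 4421 and 7322 counts in NC and 7647, 7282 and 8448 in shPRMT6. Among values from 1 to 12 in each library, 43.4% to 45.3% were 4, 8 or 12.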
